A study of Mus musculus with 6 samples.

Results

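Sdk1, Sdk2, Dscam and Dscaml1 encode the mouse Sidekick and DSCAM proteins, large cell adhesion molecules of the immunoglobulin superfamily. All 4 genes were found by symbol among the 56748 genes of the count table, and all 4 were among the 17584 genes with enough reads to be tested. They were chosen with the difference between the treatment groups already known, because Sdk2 had one of the smaller p-values among genes higher after treatment, so their values for that difference are a description and are not supported by a test.

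The data are 6 RNA-seq libraries of tissue that the study describes as infarcted cortex of male wild-type C57 mice, 3 from mice given PLEA nanoparticles and 3 from mice given saline, at the day 3 time point. All mice of both groups had a photothrombotic stroke in the left hemisphere, a clot made in cortical vessels by a 532 nm laser of 250 mW and 1.5 mm width, applied for 5 minutes after an intravenous agent at 100 mg/kg, and received 100 µL of nanoparticles or saline by the tail vein 2 hours later. The labels do not spell out the abbreviation PLEA, name the photosensitising agent, give the age of the mice or say how much of each piece was infarct, and no uninjured tissue was analysed here. They do not state that replicates came from separate animals, so measures of spread between libraries may be technical. Libraries held between 16810448 and 17516434 counts, and the 4 genes had between 189 counts (Sdk1 in saline replicate 2) and 2132 counts (Dscam in saline replicate 2).

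Sidekicks and DSCAMs each carry a row of immunoglobulin domains followed by fibronectin type III repeats, a single membrane span and a cytoplasmic tail. Each binds mainly to copies of itself on the next cell. In the retina, where they are best studied, Sidekicks guide neurites of matching cells to the same synaptic layer, whereas mouse Dscam and Dscaml1 keep the neurites of like cells from clumping. The tails of these proteins bind PDZ scaffolds of the MAGI family, and DSCAM also acts with netrin receptors in axon guidance.

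The 250 bases before the RefSeq start (GRCm38.p6) of the 3 genes with an entry are shown, because they allow the promoters of Sdk2, which differed between the groups, and of its paralogue Sdk1, which overlapped between them, to be read side by side. They are written 5′ to 3′ on the strand of the gene, and capitals mark CCAAT and GGGCGG, searched on both strands.
Sdk2, chr11:114067030-114067279 (-): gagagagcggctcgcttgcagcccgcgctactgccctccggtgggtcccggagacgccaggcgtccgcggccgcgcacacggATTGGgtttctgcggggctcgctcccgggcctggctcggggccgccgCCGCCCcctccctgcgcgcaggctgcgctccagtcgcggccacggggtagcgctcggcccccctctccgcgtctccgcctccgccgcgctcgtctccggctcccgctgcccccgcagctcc
Sdk1, chr5:141241284-141241533 (+): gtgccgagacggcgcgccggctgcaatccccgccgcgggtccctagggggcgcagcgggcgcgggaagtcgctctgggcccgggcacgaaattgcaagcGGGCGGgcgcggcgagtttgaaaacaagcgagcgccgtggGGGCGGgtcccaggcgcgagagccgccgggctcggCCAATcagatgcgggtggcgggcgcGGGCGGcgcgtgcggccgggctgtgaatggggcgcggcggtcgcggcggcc
Dscam, chr16:97170736-97170985 (-): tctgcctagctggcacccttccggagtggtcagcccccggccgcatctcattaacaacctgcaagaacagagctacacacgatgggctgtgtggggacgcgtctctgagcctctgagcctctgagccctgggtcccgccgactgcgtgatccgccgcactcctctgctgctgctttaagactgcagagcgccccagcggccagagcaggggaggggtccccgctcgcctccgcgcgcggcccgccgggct

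The letters CCAAT or their reverse complement stood once in the Sdk2 and once in the Sdk1 stretch and were not found in the Dscam stretch, and 33.8% of the 32851 stretches of this length held them. The GC box GGGCGG stood once for Sdk2 and 3 times for Sdk1 and was not found for Dscam, against 32.7% of all stretches holding it. The cyclic AMP response element TGACGTCA, a palindrome, was in none of the 3 and in 1.55% of all. The G and C content was 78.8% for Sdk2, 78.0% for Sdk1 and 68.0% for Dscam, against a median of 52.4% over all stretches, with 38, 44 and 21 CG pairs in that order and a median of 6. Sdk2 and Sdk1 thus have GC-rich promoters of like composition, and these counts describe letters only.

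Of the Sidekick genes, Sdk2, which in the mouse retina is needed for a connection between an amacrine and a ganglion cell type, was the higher and the more different between the groups. Sdk2 was at 60.2, 62.9 and 64.8 CPM in PLEA replicates 1 to 3, against 33.8, 40.0 and 39.4 CPM in saline replicates 1 to 3, where CPM stands for counts normalized to library size with TMM factors. The lowest PLEA library was above the highest saline library, with 1041 against 692 counts. The mean was 62.6 ± 2.33 CPM in PLEA and 37.7 ± 3.42 CPM in saline (SD, n = 3 each), a 1.66-fold difference or a log2 fold change of 0.73 (SE 0.12). The log2 fold change stayed between 0.67 and 0.77 when any 1 library was left out. Among all tested genes, 541 or 3.08% had a log2 fold change at least as high.

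Sdk1, the paralogue, which in the mouse retina marks other cell types than Sdk2 does, was the lowest of the 4 genes. It was at 18.0, 13.3 and 13.4 CPM in PLEA replicates 1 to 3, against 16.4, 10.9 and 13.7 CPM in saline replicates 1 to 3. The groups overlapped, and replicate 1 was the highest library in each. The mean was 14.9 ± 2.73 CPM in PLEA and 13.7 ± 2.75 CPM in saline (SD, n = 3 each), with a log2 fold change of 0.12 (SE 0.21). Sdk1 had no settled direction, since the value was -0.05 without PLEA replicate 1 and -0.02 without saline replicate 2.

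The ratio of Sdk2 to Sdk1 within a library, per kilobase of exon, was 2.39, 3.40 and 3.48 in PLEA replicates 1 to 3, against 1.47, 2.62 and 2.07 in saline replicates 1 to 3. Sdk2 was thus above Sdk1 in each of the 6 libraries, and the ratio in PLEA replicate 1 lay within the saline range.

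Dscam, a homophilic receptor that also binds netrin, was the gene of the 4 that varied most within a group. It was at 77.7, 81.5 and 88.5 CPM in PLEA replicates 1 to 3, against 59.2, 123 and 69.1 CPM in saline replicates 1 to 3. Saline replicate 2 was the highest of the 6 libraries, and the other 2 saline libraries were the lowest. The mean was 82.6 ± 5.49 CPM in PLEA and 83.8 ± 34.5 CPM in saline (SD, n = 3 each), with a log2 fold change of -0.02 (SE 0.25). Without saline replicate 2 the value was 0.36, and the sign also turned with total-count scaling (0.02) and without PLEA replicate 1 (0.01), so no direction is given for Dscam.

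Dscaml1, a DSCAM relative that in the mouse retina spaces cells of the rod pathway, was at 63.5, 61.4 and 67.0 CPM in PLEA replicates 1 to 3, against 50.5, 58.6 and 69.4 CPM in saline replicates 1 to 3. The PLEA libraries lay inside the saline range. The mean was 64.0 ± 2.80 CPM in PLEA and 59.5 ± 9.46 CPM in saline (SD, n = 3 each), with a log2 fold change of 0.10 (SE 0.14), which ran from 0.01 without saline replicate 1 to 0.22 without saline replicate 3.

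**Figure D1:**
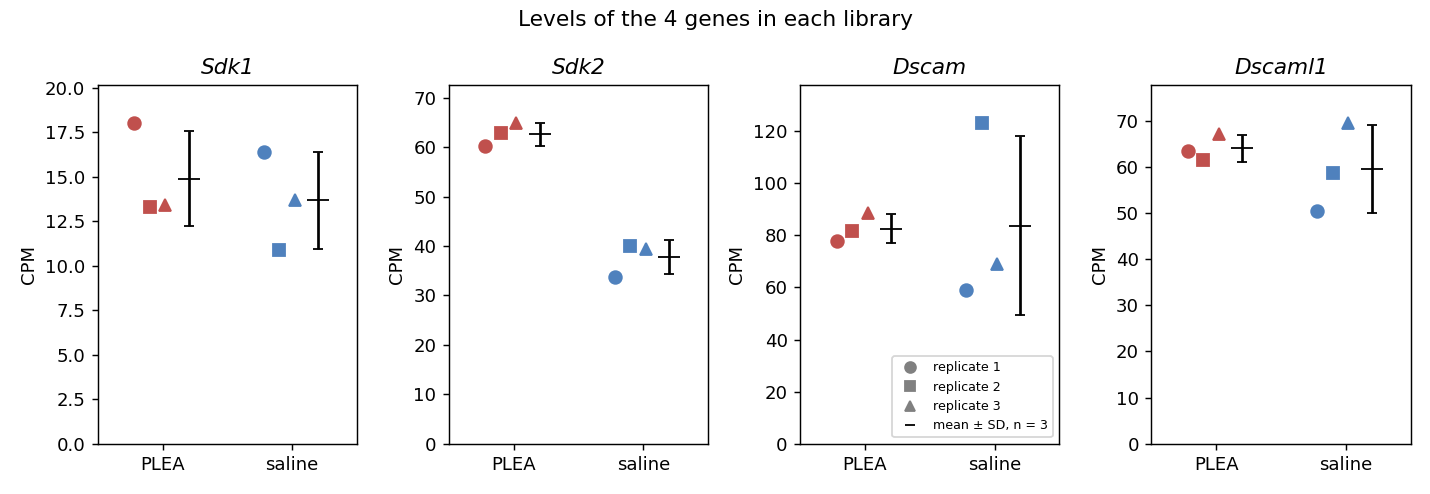
Levels of Sdk1, Sdk2, Dscam and Dscaml1 in CPM (y axis, from 0) in the 3 PLEA and 3 saline libraries, with a symbol for each replicate and the mean ± SD (n = 3) as black bars. PLEA libraries lie above saline libraries for Sdk2 alone among the 4 genes, and saline replicate 2 stands high at 123 CPM for Dscam.

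Of the 4 genes, 3 had a positive log2 fold change and their median was 0.11, against 49% positive and a median of -0.01 over all 17584 genes. With edgeR's quasi-likelihood test 0 of 4 passed an adjusted p of 0.05, where 0% of all tested genes passed, and 1 of 4 (Sdk2) was higher at an unadjusted p under 0.05, where 2.28% of all genes were. The groups did not overlap for 1 of 4 genes (Sdk2, higher in PLEA), where this held for 5.16% of all genes. DESeq2 called 1 of 4 (Sdk2, higher), where it called 4 of 17584 genes higher and 37 lower. With limma voom 0 of 4 passed, as 0 of all tested genes did. The members were chosen on this difference, so nothing is read from these counts.

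The order of levels between genes was not used to choose them and could be compared, after division by the exon length of each gene. The difference of Sdk2 between the groups did enter the choice, so tests of pairs with Sdk2, which pool both groups, are not wholly free of it. Dscam stood highest at 9.46 ± 2.51 CPM per kilobase over all 6 libraries (SD), followed by Dscaml1 at 6.93 ± 0.754, Sdk2 at 3.24 ± 0.898 and Sdk1 at 1.29 ± 0.229 CPM per kilobase. All 6 pairs of genes kept 1 order in each of the 6 libraries, and each pair had an adjusted p of 0.03125 (exact two-sided sign-flip permutation test over n = 6 libraries, Benjamini-Hochberg over 6 pairs), the smallest p that 6 libraries allow.

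The mean log2 ratio was 0.42 ± 0.36 for Dscam over Dscaml1 (SD, n = 6 libraries), and in saline replicate 3 these neighbours were nearly level at 7.85 and 7.79 CPM per kilobase. Dscam and Dscaml1 differed by less in 5 libraries than in saline replicate 2, where the ratio was 2.13. The log2 ratio was -1.14 ± 0.35 for Sdk2 over Dscaml1 and -1.30 ± 0.47 for Sdk1 over Sdk2. The remaining pairs were -1.55 ± 0.48 for Sdk2 over Dscam, -2.44 ± 0.33 for Sdk1 over Dscaml1 and -2.86 ± 0.58 for Sdk1 over Dscam. The order of the 4 genes was therefore Dscam, Dscaml1, Sdk2, Sdk1 in both groups, with 4.05 ± 0.151 CPM per kilobase of Sdk2 in PLEA and 2.44 ± 0.226 in saline (SD, n = 3 each). Undivided CPM gave log2 ratios of -0.34 for Sdk2 over Dscaml1 and 0.40 for Dscam over Dscaml1, each with 1 library in the other order and an adjusted p of 0.0625 in the same exact permutation test. Division by the longest coding length in GENCODE M21 in place of exon length, a choice made after seeing the data, kept the order in each library and the adjusted p of 0.03125 (exact permutation test), but gave smaller gaps of -0.38 for Sdk2 over Dscaml1 and -0.85 for Sdk2 over Dscam.

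**Figure D2:**
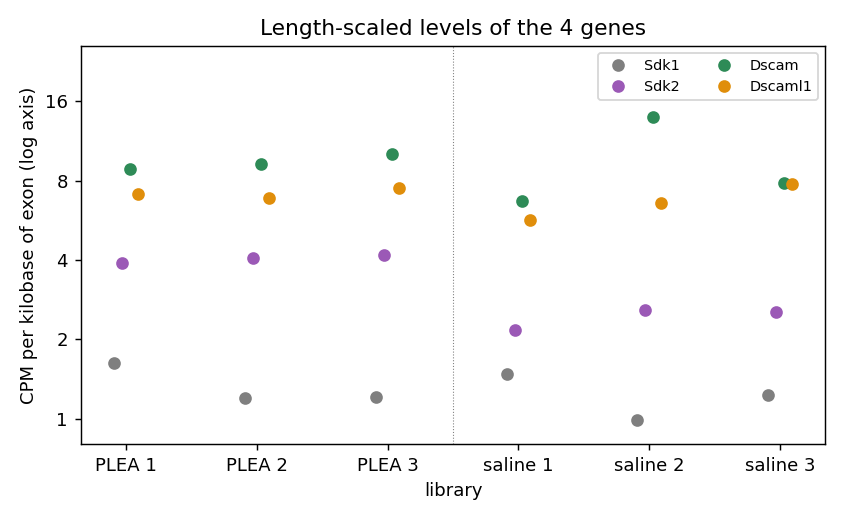
Length-scaled level of each gene (y axis, CPM per kilobase of exon, log axis) in each PLEA and saline library (x axis), 1 point per gene and library. Dscam is highest and Sdk1 lowest in each library, and Dscam and Dscaml1 meet in saline replicate 3 at 7.85 and 7.79.

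Spread within the groups differed between the genes. The biological coefficient of variation, edgeR's estimate of spread beyond counting, was 12.9% for Sdk2 and 14.3% for Dscaml1, close to the medians of 14.4% and 14.1% over genes of like level. edgeR draws this estimate toward that of genes of like level, so closeness to their medians is partly built in. It was 20.4% for Sdk1, against 18.9% for genes of like level. Dscam was at 22.7%, against 13.9%. The counting error at the mean count was 6.38% for Sdk1, 3.39% for Sdk2, 2.64% for Dscam and 3.07% for Dscaml1. Each was smaller than the edgeR estimate for the same gene.

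Deviations from the group means, which leave the treatment difference out, were compared over the 6 libraries as a description. They ran together for Sdk2 with Dscaml1 (r = 0.77) and with Dscam (r = 0.72), and in opposite senses for Sdk1 with Sdk2 (r = -0.84) and with Dscam (r = -0.80), while Dscam with Dscaml1 (r = 0.19) and Sdk1 with Dscaml1 (r = -0.32) were weaker. Both Sidekick genes thus deviated in opposite directions within groups. All genes share the same libraries and scaling, and 6 libraries give few independent points.

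The genes most like each member by this measure, out of 14329 genes averaging 1 or more on the log2 CPM scale, were Fry, Tafa5 and Ctxn2 for Sdk2 (r = 0.998, 0.998 and 0.996). Between the groups Fry was at -0.03 (SE 0.14), Tafa5 at -0.08 (SE 0.14) and Ctxn2 at -0.24 (SE 0.29) on the log2 scale. For Sdk1 they were Mfap3l, Plp2 and Sdcbp (r = 0.999, 0.998 and 0.997). For Dscam they were Ank1, Mast1 and Esrrb (r = 0.999, 0.998 and 0.998), and for Dscaml1 Armc6, Sars2 and Myo16 (r = 0.997, 0.995 and 0.994). With so few libraries high values are common: 144 genes exceeded 0.95 with Sdk2, 135 with Sdk1, 256 with Dscam and 81 with Dscaml1.

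The gene likest to Dscam, Ank1, which encodes the membrane linker ankyrin 1, was at 51.0, 55.4 and 60.4 CPM in PLEA replicates 1 to 3, against 50.5, 169 and 65.2 CPM in saline replicates 1 to 3. Esrrb, a nuclear receptor gene, was at 1.21, 1.42 and 1.57 CPM in PLEA, against 1.99, 7.40 and 2.52 CPM in saline. Saline replicate 2 was the highest library for both, as for Dscam. Both were picked for deviations like those of Dscam, so this follows from the choice.

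Saline replicate 2 also stood apart in markers of other brain regions. Slc17a6, which encodes the vesicular glutamate transporter VGLUT2 of thalamic and other subcortical neurons, was at 22.4, 37.8 and 22.9 CPM in PLEA, against 23.3, 284 and 29.4 CPM in saline. Tcf7l2, a transcription factor of the thalamus, was at 5.20, 16.3 and 7.88 CPM in PLEA, against 7.33, 79.5 and 7.08 CPM in saline. The summed level of the 5 thalamic markers was 156 to 185 CPM in PLEA and 151 to 543 CPM in saline, with 4 of 5 highest in saline replicate 2. The remaining thalamic marker, Prkcd, went the other way and was lowest in that library at 9.36 CPM.

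Striatal markers went the other way in that library. Ppp1r1b, the gene of the phosphatase inhibitor DARPP-32, abundant in striatal projection neurons, had 202, 533 and 436 CPM in PLEA libraries, against 189, 25.8 and 411 CPM in saline. The 9 striatal markers summed to 1050 to 2250 CPM in PLEA and 240 to 2280 CPM in saline, with saline replicate 2 the lowest for each. None of these markers was at 0, and the part of tissue makeup in the Dscam value of saline replicate 2 was not tested. In bulk tissue a change in the number of cells of a type and a change in RNA per cell cannot be told apart.

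**Figure D3:**
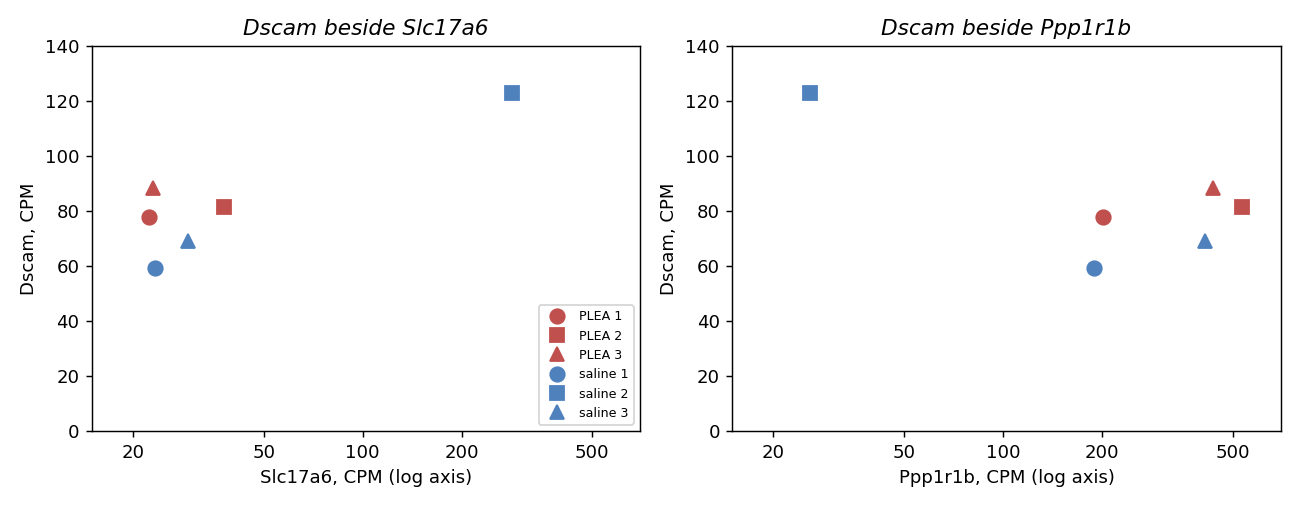
Dscam in CPM (y axis, from 0) against Slc17a6 (left) and Ppp1r1b (right) in CPM on log axes, 1 point per library, red for PLEA and blue for saline. Saline replicate 2 lies alone, with 123 CPM of Dscam beside 284 CPM of Slc17a6 and 25.8 CPM of Ppp1r1b.

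Sdk2, by contrast, was at 40.0 CPM in saline replicate 2, beside 39.4 CPM in saline replicate 3. The marker lists with the most genes that separated the treatment groups, as Sdk2 did, were those of meninges, astrocytes and endothelium, in the opposite direction. All 10 meningeal markers had negative log2 fold changes with a median of -1.44, and they summed to 59.2 to 83.4 CPM in PLEA and 140 to 191 CPM in saline, without overlap between groups for 9 of 10. Over all tested genes, 5.54% were lower in PLEA without overlap. Astrocyte markers had a median of -0.59 over 8 genes, 3 of them without overlap, and summed to 3440 to 4670 CPM in PLEA and 4490 to 7290 CPM in saline. Microglial markers had a median of -0.77 over 11 genes, 1 without overlap, and summed to 160 to 518 CPM in PLEA and 321 to 1030 CPM in saline. Each of these 3 lists was highest in saline replicate 1, and leaving that library out gave medians of -1.25, -0.24 and -0.28 for meninges, astrocytes and microglia. Without PLEA replicate 1 the microglial median was -1.23. Without saline replicate 1 the log2 fold change of Sdk2 was 0.67. The part of these cells in the Sdk2 difference was not tested.

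Neuronal markers overlapped between the groups for most genes. The 10 pan-neuronal markers had a median of -0.07 on the log2 scale and summed to 6840 to 8550 CPM in PLEA and 7460 to 8570 CPM in saline, and none separated the groups. The median was -0.21 over 8 upper-layer markers, 0.23 over 9 deep-layer markers and -0.01 over 9 inhibitory markers. Of these genes Cux1 alone did not overlap, lower in PLEA as 5.54% of all tested genes were. Hippocampal markers had a median of 0.08 over 6 genes. Of the 4 hippocampal markers with the smallest p-values, C1ql2 (16.6 CPM) and Fibcd1 (27.1 CPM) were at their highest in saline replicate 2. Wfs1 (58.1 CPM) was at its lowest there, and Dkk3 was at neither. The other hippocampal markers are not described for that library.

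Striatal markers had the same sign as Sdk2. All 9 had positive log2 fold changes, with a median of 0.51, and each overlapped between the groups. Ppp1r1b was at 0.90 (SE 0.77) and Drd1, a dopamine receptor gene of striatal projection neurons, at 0.75 (SE 0.73). With 1 library left out the striatal median ran from 0.11 (saline replicate 2 omitted) to 1.42 (saline replicate 3 omitted), and it was 0.97 with limma voom and 0.83 with the replicate block. Thalamic markers had a median of -1.68 over 5 genes, 0.07 without saline replicate 2, -0.89 with limma voom and -0.94 with the replicate block. Of them only Prkcd had the sign of Sdk2, at 1.09 (SE 0.35). It was higher in PLEA without overlap, as 5.16% of all tested genes were. Choroid plexus markers had a median of 1.29 over 4 genes, with 0.63 without PLEA replicate 3 and 2.27 without saline replicate 3. The part of these regions in the Sdk2 difference was not tested.

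Oligodendrocyte markers had a median of -0.21 over 7 genes, and leaving out 1 library gave -0.30 (without saline replicate 3) to -0.05 (without saline replicate 2). Endothelial markers had a median of -0.39 over 6 genes. Of them 3 were lower in PLEA without overlap, as 5.54% of all tested genes were. The endothelial median was -0.18 without saline replicate 1 and -0.54 without PLEA replicate 1. In edgeR 0 of the 102 tested marker genes passed over all genes, and limma voom called 0. DESeq2 called 10 of them lower, 9 of these meningeal, and 0 higher, where it called 37 of 17584 genes lower and 4 higher.

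Related adhesion genes and known partners were taken from 6 lists holding 111 tested genes. Of these, 45 had a positive log2 fold change and the median was -0.03, against -0.01 over all genes. In edgeR 0 of 111 passed over all genes, where 0% of all genes did, and DESeq2 and limma voom also called 0 in each list. Unadjusted p was under 0.05 for 2 genes higher in PLEA and 7 lower in PLEA, where 2.28% of all genes were higher and 3.58% lower, 5.86% together.

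Contactins, which are membrane-anchored immunoglobulin adhesion proteins, and their transmembrane partners had a median of -0.22 over 13 genes. Of them 12 had negative values, 3 were lower at an unadjusted p under 0.05 and 0 passed over all genes. Among all tested genes 49% were positive and 3.58% were lower at that unadjusted p. Cntnap5a was at 59.7, 62.3 and 48.0 CPM in PLEA, against 64.2, 81 and 82.6 CPM in saline. Its log2 fold change was -0.42 (SE 0.15), lower without overlap between groups, as 5.54% of all tested genes were. Cntnap2, which gathers potassium channels beside nodes of Ranvier, was at -0.45 (SE 0.19) and Cntn5 at -0.57 (SE 0.24), and both overlapped between the groups. The summed level of this list was 1230 to 1320 CPM in PLEA and 1150 to 1670 CPM in saline, with saline replicate 2 the highest.

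Among 30 other immunoglobulin adhesion genes the median was -0.07, 0 past the threshold, and unadjusted p under 0.05 for 1 higher and 1 lower gene. Kirrel2, a homophilic relative of nephrin, was at 5.14, 11.9 and 7.83 CPM in PLEA, against 3.75, 3.53 and 5.54 CPM in saline, a log2 value of 0.96 (SE 0.34), with overlap between groups. Mcam, the vascular adhesion molecule CD146, was at -0.61 (SE 0.17), and Cadm2, a synaptic cell adhesion molecule, at -0.31 (SE 0.14). Both were lower in PLEA without overlap. The groups did not overlap for 4 of the 30 genes. Among all tested genes 5.16% were higher and 5.54% lower without overlap.

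Synaptic organisers outside the immunoglobulin family had a median of 0.05 over 35 genes, of which 0 were below an unadjusted p of 0.05 in edgeR. Tenm3, a teneurin that matches pre- and postsynaptic cells, was at 115, 118 and 120 CPM in PLEA, against 98.3, 206 and 165 CPM in saline, and its log2 fold change was -0.42 (SE 0.24), with overlap between the groups. All 35 lay between -0.42 and 0.21.

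PDZ scaffolds, the class that binds the Sidekick and DSCAM tails, had a median of -0.01 over 17 genes. The MAGI member among the 4 smallest p-values of this list, Magi1, was at -0.26 (SE 0.17) and overlapped between groups. Pick1, a PDZ protein that traffics AMPA receptors, was at 16.6, 15.8 and 19.4 CPM in PLEA, against 13.5, 13.2 and 14.0 CPM in saline, a log2 fold change of 0.35 (SE 0.15). Pick1 was the only scaffold of the 17 without overlap between groups, where 5.16% of all tested genes were higher in PLEA without overlap.

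Netrins and their receptors had a median of 0 over 11 genes. Unc5c and Unc5d, repulsive netrin receptors, were at -0.32 (SE 0.13) and -0.33 (SE 0.14). Both were lower at an unadjusted p under 0.05, as 3.58% of all tested genes were, but not past the threshold. Unc5c was at 45.5, 36.6 and 41.9 CPM in PLEA, against 46.5, 54.5 and 53.7 CPM in saline. In Drosophila, Dscam1 signals through PAK and the NCK homologue Dock, and the 5 mouse PAK and NCK genes had a median of -0.15. Nck1 was at -0.33 (SE 0.13), lower in PLEA without overlap, as 5.54% of all tested genes were.

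**Figure D4:**
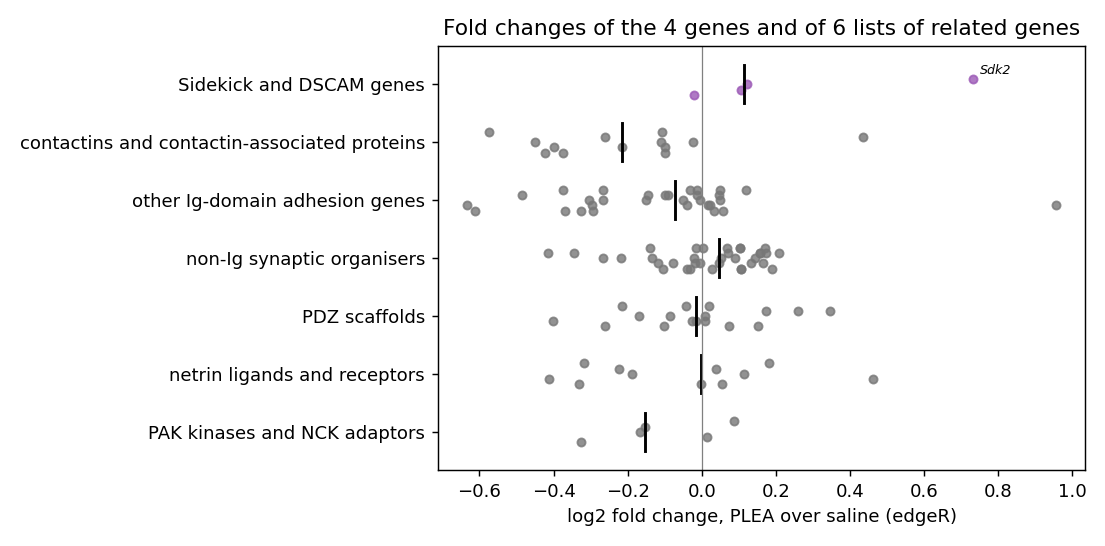
Log2 fold change of PLEA over saline (x axis) for the 4 Sidekick and DSCAM genes and for each gene of 6 related lists (rows), 1 point per gene, with a black bar at each median. Sdk2, chosen for its difference, lies at 0.73 and Kirrel2 at 0.96, and list medians lie between -0.22 and 0.05.

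The 4 genes are long. In the deposited table Sdk2 spans 291 kb (chromosome 11, bases 113667200 to 113957872, minus strand) and Sdk1 spans 974 kb (chromosome 5, 141227245 to 142201341, plus strand). Dscam spans 580 kb (chromosome 16, 96392040 to 96971952, minus strand) and Dscaml1 327 kb (chromosome 9, 45337926 to 45665010, plus strand). Genes of 200 to 300 kb, the class of Sdk2, had a median of -0.08 on the log2 scale over 420 genes with 32.4% positive, and genes of 300 kb or more had -0.09 over 547 genes with 32.9% positive. Genes under 10 kb had 0.04 over 5546 genes with 54.5% positive.

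Antisense genes overlap each member, and the strand setting of the counting is not given in the sources used here. Reads from exon bases that such a gene shares with a member cannot be told apart without strand. Gm39468, a long noncoding RNA inside the Sdk2 span over 1531 bases on the opposite strand, had 10, 14 and 9 counts in PLEA, against 4, 2 and 7 counts in saline, beside 576 or more for Sdk2 in each library. The 12 overlapping genes of the other 3 members had at most 5 counts in any library. In GENCODE M21, which lists 6 transcripts for Sdk2, 2 of them coding, no antisense gene shares exon bases with Sdk1, 2 share 174 and 99 bases with Dscam, and 1 shares 2 bases with Dscaml1. Gm39468 was not found over Sdk2 in that annotation, so the exon bases that they share are not known. Counts per gene do not separate the transcripts of a gene.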

How the data were processed

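RNA-seq of 6 libraries was analysed. The authors deposited raw read counts per gene, whole numbers with no normalization, with gene length beside them. Which aligner, counter and strand setting were used is not given in the sources used here. GRCm38 and mm10 are named per the submitters' processing notes. The deposited lengths equalled the GENCODE M21 (GRCm38) exon unions for 4 of 4 members but the spans for 0 of 4, so deposited coordinates carry no build.

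PLEA was compared with saline in edgeR 4.0.16 under R 4.3.3 (filterByExpr, TMM, quasi-likelihood F test, group only), with Benjamini-Hochberg adjustment over 17584 genes and a threshold of 0.05. Standard errors were the log2 fold change over the root of the F statistic. Log2 CPM used a prior count of 2. Alternatives were DESeq2 1.42.0, limma 3.58.1 voom, RLE, upper-quartile or total-count scaling, other filters, a replicate block, and leaving out each library. The procedure was tested on simulated data.

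The members and lists were chosen with earlier results of these data known. In each list, up to 4 genes with the smallest p at a mean log2 CPM of at least 1 were eligible for naming, with the 3 genes most like each member; Tcf7l2 was named after its values were seen. Kirrel1 is Kirrel in the table. The values of 1 list gene are not reported here.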

Additional observations from a re-analysis of the deposited data

How the results depend on the processing

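Across the alternatives the edgeR counts of genes higher and lower, 0 and 0, stayed so except with DESeq2 (4 and 37), without a filter (7 and 31) and without saline replicate 1; leaving out 1 library gave 0 to 0 higher and 0 to 1 lower. Marker genes numbered 1 higher and 10 lower without a filter and 10 lower with DESeq2. The causes were not tested. The log2 fold change of Sdk2 was 0.72 and past the threshold without a filter (adjusted p = 0.0433) and 0.73 with DESeq2 (adjusted p = 0.000661), and not past it in the other 12 alternatives, where adjusted p reached 1. Sdk2 was chosen on this difference, so these calls and ranges describe it and are no test of it. Leave-one-out ranges were -0.05 to 0.29 for Sdk1, 0.67 to 0.77 for Sdk2, -0.21 to 0.36 for Dscam and 0.01 to 0.22 for Dscaml1. Dscam turned to 0.02 with total counts and 0.05 with limma voom or the replicate block.

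The replicate block called 0 genes in each direction, as without it. Same-numbered libraries correlated at 0.41, 0.20 and -0.03, and not every library correlated best with its own number, so the numbers do not show a pairing.

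Without 1 library the level tests cannot go below an exact permutation p of 0.0625. The log2 ratios then ran from -1.45 to -1.20 (Sdk1 over Sdk2), -2.99 to -2.66 (Sdk1 over Dscam), -2.54 to -2.38 (Sdk1 over Dscaml1), -1.63 to -1.38 (Sdk2 over Dscam), -1.21 to -1.04 (Sdk2 over Dscaml1) and 0.28 to 0.50 (Dscam over Dscaml1). With CPM not divided by length Sdk2 over Dscaml1 was -0.34 and Dscam over Dscaml1 0.40, both no longer past the threshold. Coding lengths from GENCODE M21, chosen after seeing the data, kept order and calls but moved Sdk2 over Dscaml1 to -0.38 and Sdk2 over Dscam to -0.85, and the RefSeq protein lengths planned for this were not used. Of 266 list medians under alternatives, 262 moved by less than 1 SD between replicates. This limit is loose for lists of wide spread, since the striatal median counted within it at 0.11 and at 1.42. The median of genes of 300 kb or more stayed negative throughout. At 3 libraries a group, differences of the size of that of Sdk2 and larger may not be detectable, and in edgeR 0 of 17584 genes passed.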
